A study of Mus musculus with 12 samples.

Results

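Transcripts of 10 genes of the transforming growth factor beta (TGF-beta) system were measured in chondrocytes isolated from mouse articular cartilage. The genes were the ligands Tgfb1, Tgfb2 and Tgfb3, the receptors Tgfbr1, Tgfbr2 and Tgfbr3, the latency proteins Ltbp1, Ltbp2 and Ltbp3, and the signal transducer Smad3, chosen by name among the 17536 genes of the deposited values. Each of them was found once. The cells came from C57BL/6 mice aged 5 days, and the study asked how loss of Runx3 alters them. R3-Cntl mice carried floxed Runx3 alleles (Runx3 fl/fl) and no Cre, and R3-cKO mice were Col2a1-Cre; Runx3 fl/fl littermates, in which Cre is active in cells that have used the Col2a1 promoter. Cells released from the joint surface represent the superficial zone (SFZ), and cells digested afterwards from the remaining cartilage represent the deep zone (DZ). By the methods of the study, isolated cells were plated and grown in monolayer, so the values need not be those of fresh tissue, and the labels give no time in culture. Each zone and genotype has 3 libraries, which gives 4 groups and 12 libraries.

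TGF-beta ligands are secreted bound to their own propeptide, and latent TGF-beta binding proteins tether that complex to the extracellular matrix until it is activated. Free ligand is bound by the type II receptor Tgfbr2, which recruits and phosphorylates the type I receptor Tgfbr1, and the signal passes to Smad2 and Smad3. Tgfbr3, or betaglycan, is a co-receptor that presents ligand, Tgfb2 above all. In articular cartilage this pathway is known for holding chondrocytes back from hypertrophy and for inducing Prg4, the lubricin gene of the surface layer.

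Values are FPKM, fragments scaled to transcript length and to library size, a unit inferred from the values, while the methods of the study name quantile normalization and log2 CPM, which is not scaled to length. Levels and shares compared between genes hold only if the unit is FPKM. The number of reads behind them is unknown. Runx3, the targeted gene, measured 10.7, 5.98 and 6.65 FPKM for SFZ libraries 1, 2 and 3 of R3-Cntl, and 11.8, 9.07 and 3.42 FPKM for SFZ libraries labelled R3-cKO. Its DZ values were 12.7, 12.7 and 7.66 FPKM for R3-Cntl and 15.95, 12.7 and 8.14 FPKM for libraries labelled R3-cKO. The genotypes overlapped in both zones, so directions between genotypes refer to libraries by their labels. With a value per gene, the floxed exons cannot be read by themselves. Ddx3y, a gene of the Y chromosome, reached no more than 0.02 FPKM in libraries 2 and 3 labelled R3-cKO, in either zone, while the other 8 libraries held 4.96 to 21.1 FPKM, so sex and genotype differ together in numbers 2 and 3.

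Zone labels were set against cell type markers. Col2a1, the main cartilage collagen, measured 3049 to 9229 FPKM in the SFZ and 11248 to 22791 FPKM in the DZ. All 14 chondrocyte markers were detected, and 12 of them were higher in the DZ at an adjusted p under 0.05 in limma. Fibroblast and tendon markers summed to 4549, 8364 and 4944 FPKM for SFZ libraries 1, 2 and 3 of R3-Cntl and to 4757, 4214 and 11603 FPKM for SFZ libraries labelled R3-cKO. DZ sums came to 672, 1107 and 3118 FPKM for R3-Cntl and 656, 992 and 2381 FPKM for libraries labelled R3-cKO. The sum was therefore larger in every SFZ library than in every DZ library, and R3-Cntl library 2 and R3-cKO library 3 stood highest in the SFZ. Of the 15 genes tested, 2 had a positive difference. Dcn had a mean of 161 FPKM in the SFZ and 352 FPKM in the DZ, and Lum of 143 FPKM in both. Of the 16 genes of this list, 15 reached 1 FPKM (Pi16 did not), 12 of 15 tested were lower in the DZ, and Col1a1 was the most abundant at 24.4 to 4793 FPKM. Cd34, Dpt and Tnmd, counted among them, would not have been tested on DZ libraries alone and entered through the SFZ, where they are high. Macrophage markers summed to 182, 154 and 8.47 FPKM for SFZ libraries of R3-Cntl and to 153, 16.7 and 72.3 FPKM for SFZ libraries labelled R3-cKO, against 4.12 to 25.4 FPKM in the DZ. Their most abundant gene was Lyz2, 11 of 12 reached 1 FPKM in some library, and Ptprc did not. The lowest SFZ sums of this list lay within the DZ range.

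Zones were compared over all 12 libraries, with 6 in each, to ask how the pathway differs between cells isolated from them. Tgfb3 and Tgfbr3 were lower in the DZ, by log2 differences of -1.52 and -1.39, and the other 8 members did not pass the test. Here limma was fitted to log2(FPKM + 1) of genes that reached 1 FPKM in 3 libraries or more, with Benjamini-Hochberg adjustment over all genes tested, and log2 differences are on that scale. The p-values measure only the spread between these libraries, whose labels do not name animals. With it 2 of the 10 members had an adjusted p under 0.05. Of 11765 genes tested, 20.6% passed in either direction, 450 higher and 1974 lower in the DZ, and 16.8% passed as lower, so the share among the members was near that of all genes. All 10 members had a negative difference, with a median of -0.40 against -0.14 over all genes. Set against that overall shift, 9 of the 10 lay below the median of all genes, and Tgfbr2 lay 0.07 above it. Quantile normalization moved the median of all genes to 0.04 and the calls to 1086 higher and 781 lower, and median-of-ratios size factors moved them to 0.0032 with 934 higher and 968 lower. Under both, the count of members past the threshold was again 2, and Tgfbr2 took a positive sign. Once genotype and replicate number together were fitted as a block, 4 members (Tgfb3, Tgfbr3, Ltbp2 and Ltbp1) and 3949 genes passed. That block pairs SFZ with DZ libraries of the same genotype and number. The labels do not say that equal numbers mark the same animal.

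**Figure D1:**
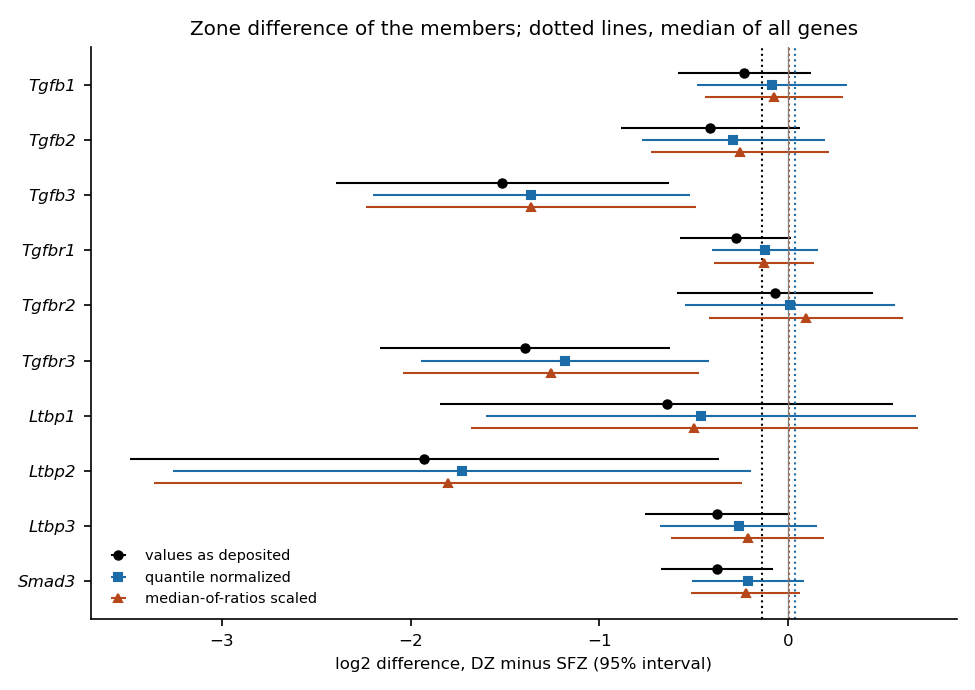
Log2 difference (DZ minus SFZ, horizontal axis) of the 10 members with 95% intervals from limma over 12 libraries, for the values as deposited, quantile normalized values and median-of-ratios scaled values, with the median of all genes as dotted lines. Tgfb3 and Tgfbr3 lay at -1.52 and -1.39 with intervals below 0. The interval of Ltbp2 also lay below 0 under each scaling, and that of Smad3 only for the values as deposited. Ltbp2 had the widest interval, and Tgfbr2 changed sign with the scaling.

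Without the block, the count for the zones moved between 0 and 3 as single libraries were left out. Without R3-Cntl SFZ library 2 it was 0 of 10, with a limma adjusted p of 0.0671 for Tgfb3 and 0.0574 for Tgfbr3, and 1245 genes passed. It was 1, Tgfbr3, without R3-cKO SFZ library 3 or without R3-cKO DZ library 1, where Tgfb3 had an adjusted p of 0.0569 and 0.0601. Without R3-Cntl DZ library 1 the count was 2 and the genes passing were 1545, and without R3-cKO DZ library 1 they were 1588. The count was 3 in 4 cases: Ltbp2 passed without R3-Cntl SFZ library 1 or R3-cKO DZ library 2 (limma adjusted p = 0.0339 and 0.0428), Ltbp3 without R3-cKO SFZ library 2 (0.0381) and Smad3 without R3-Cntl DZ library 3 (0.0382). Leaving out R3-Cntl SFZ library 2 and R3-cKO SFZ library 3, the SFZ libraries with the most fibroblast and tendon transcripts, gave 0 members and 644 genes, with Tgfb3 at -1.26 and Tgfbr3 at -1.11. Leaving out the DZ libraries with the most, number 3 of both genotypes, gave 3 members, Smad3 added, and 1883 genes. These alternatives were chosen after seeing the data. Within R3-Cntl libraries alone 0 members and 140 genes passed, and within R3-cKO libraries 0 members and 2 genes passed. The differences there were -1.72 and -1.31 for Tgfb3 and -1.20 and -1.59 for Tgfbr3, in that order. In bulk samples, fewer cells of a type and less RNA per cell cannot be told apart.

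Among the ligands, Tgfb3 (Entrez gene 21809, chromosome 12, 87397694 to 87419991, minus strand in mm9) differed most between zones. Its values were 26.3, 67.6 and 41.6 FPKM for SFZ libraries 1, 2 and 3 of R3-Cntl and 23.2, 60.5 and 54.1 FPKM for SFZ libraries labelled R3-cKO. In the DZ they were 4.67, 17.3 and 20.5 FPKM for R3-Cntl and 10.6, 25.1 and 16.7 FPKM for libraries labelled R3-cKO. The zones were apart except for R3-cKO DZ library 2, which lay above R3-cKO SFZ library 1, and libraries of number 1 were the lowest of every group. The mean was 45.6 ± 18.3 FPKM in the SFZ and 15.8 ± 7.25 FPKM in the DZ (SD, n = 6 each), a ratio of 2.88. limma gave a log2 difference of -1.52 (standard error 0.40, adjusted p = 0.0243), and the exact two-sided permutation test gave p = 0.00433 (n = 6 each). The SFZ library was the higher in 6 of 6 pairs of the same genotype and number, by 2.02 to 5.64 times. Such pairs were counted for the members only, and 8469 of 11765 genes tested had a negative difference between zones.

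Tgfb2 measured 39.1 FPKM at the lowest, 41.5 at the median and 57.3 at the highest in the SFZ, and 18.4, 36.6 and 45.8 FPKM in the DZ. The zones overlapped, since R3-Cntl DZ library 3 and R3-cKO DZ library 3 lay among the SFZ values. Its log2 difference of -0.41 (standard error 0.21, limma adjusted p = 0.193) did not pass the test. Tgfb1, the ligand that is also made by blood and immune cells, ranged from 17.4 to 30.9 FPKM in the SFZ and from 17.1 to 25.4 FPKM in the DZ. Its highest value was 1.81 times its lowest over 12 libraries, the smallest such ratio of the members, with a log2 difference of -0.23 (standard error 0.16, limma adjusted p = 0.325).

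Shares of the ligands were computed per library and not tested. Their FPKM summed to 93.5 to 144 per library in the SFZ (median 110) and to 46.6 to 90.8 in the DZ (median 75.3). The highest DZ sum, in R3-Cntl library 3, lay just below the lowest SFZ sum, in R3-cKO library 1. These sums are of the deposited values, where the median log2 difference of all genes between zones was -0.14. They were not computed under the other scalings. Tgfb3 made up 24.8 to 51.8% of the ligand FPKM in the SFZ, with a median of 39.2%, and 10.01 to 31.1% in the DZ, with a median of 21.6%, and the ranges overlapped. In the DZ the largest share was that of Tgfb2 in 5 of 6 libraries, with a median of 48.6%, and R3-Cntl DZ library 1 was the exception with 50.6% Tgfb1. In the SFZ, Tgfb3 held the largest share in R3-Cntl libraries 2 and 3 and R3-cKO library 2, and Tgfb2 in the others.

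**Figure D2:**
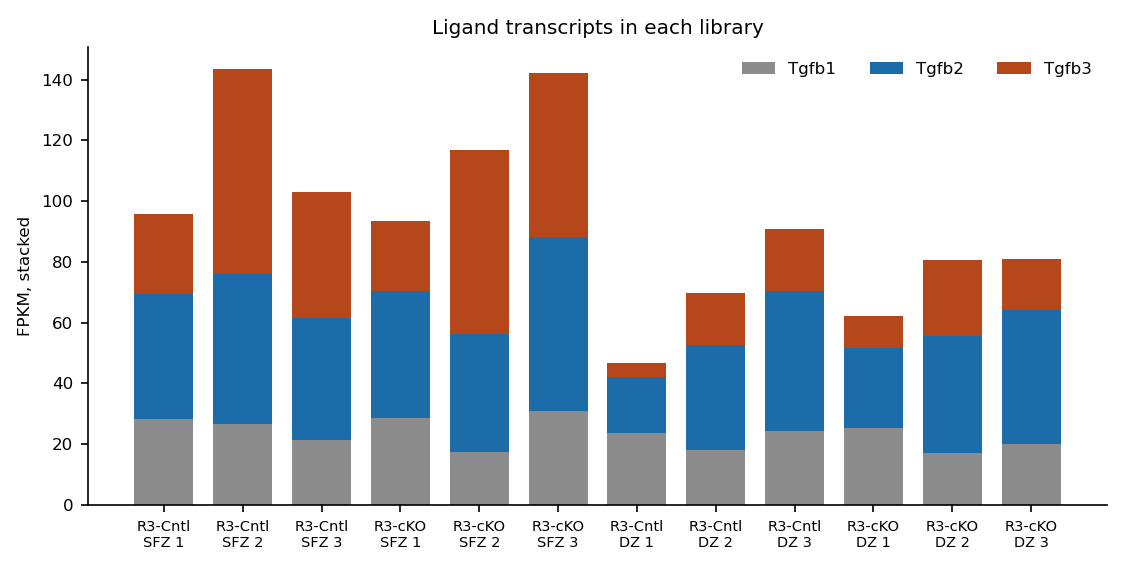
FPKM of Tgfb1, Tgfb2 and Tgfb3 (vertical axis, stacked) in each of the 12 libraries. The stacks reach 93.5 to 144 FPKM in the SFZ and 46.6 to 90.8 FPKM in the DZ, and the Tgfb3 segment is 4.67 to 25.1 FPKM tall in the DZ.

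Of the receptors, only Tgfbr3 passed the test between zones. Tgfbr3 (Entrez gene 21814, chromosome 5, 107535589 to 107718648, minus strand in mm9), the co-receptor, measured 8.71, 14.5 and 8.88 FPKM for SFZ libraries 1, 2 and 3 of R3-Cntl and 9.11, 8.0 and 18.2 FPKM for SFZ libraries labelled R3-cKO. Its DZ values were 1.74, 3.70 and 8.60 FPKM for R3-Cntl and 1.28, 3.77 and 4.88 FPKM for libraries labelled R3-cKO. Only R3-Cntl DZ library 3 reached into the SFZ range, just above R3-cKO SFZ library 2. The SFZ mean of 11.2 ± 4.15 FPKM was 2.81 times the DZ mean (SD, n = 6 each). limma gave a log2 difference of -1.39 (standard error 0.35, adjusted p = 0.0199), and the exact two-sided permutation test gave p = 0.00433 (n = 6 each). The SFZ library was the higher in 6 of 6 pairs of the same genotype and number, but in R3-Cntl number 3 by 1.03 times only.

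Tgfbr2, the type II receptor, was the most abundant member in both zones, at 78.9 ± 17.0 FPKM in the SFZ and 77.5 ± 24.9 FPKM in the DZ (SD, n = 6 each). Its range over 12 libraries was 39.5 FPKM in R3-Cntl DZ library 1 to 112 FPKM in R3-cKO DZ library 3, so both ends were DZ libraries. The log2 difference was -0.07 with a 95% interval from -0.59 to 0.45 (limma adjusted p = 0.861), and the SFZ library was the higher in 3 of 6 pairs. Tgfbr1, the type I receptor, stood far lower, at 12.4 ± 2.65 FPKM in the SFZ and 9.92 ± 1.18 FPKM in the DZ (SD, n = 6 each). Its log2 difference was -0.28 (standard error 0.13, limma adjusted p = 0.163), and 3 SFZ libraries exceeded every DZ library.

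Of the latency proteins, Ltbp2 and Ltbp1 varied more between libraries of a group than any other member. Ltbp2 (Entrez gene 16997, chromosome 12, 86124162 to 86217482, minus strand in mm9), which binds fibrillin microfibrils but not the latent complex, measured 4.16, 22.7 and 44.1 FPKM for SFZ libraries 1, 2 and 3 of R3-Cntl. In the SFZ libraries labelled R3-cKO it measured 6.74, 48.7 and 14.1 FPKM. DZ values were 0.690, 3.77 and 3.35 FPKM for R3-Cntl and 5.84, 19.0 and 1.20 FPKM for libraries labelled R3-cKO. The lowest and the highest library differed by 70.6 times, and R3-cKO DZ library 2 lay above 3 of the 6 SFZ values. The log2 difference between zones was the largest of the members at -1.93, but with a standard error of 0.70 it did not pass (limma adjusted p = 0.0763), and the exact two-sided permutation test gave p = 0.0325 (n = 6 each). The SFZ library was above the DZ library of its genotype and number in 6 of 6 pairs. Ltbp2 passed once genotype and number together were blocked (standard error 0.36, limma adjusted p = 0.0108). Ltbp2 and Tgfb3 lie on the same chromosome, 1180212 bases apart in mm9.

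Ltbp1 (Entrez gene 268977, chromosome 17, 75404908 to 75791852, plus strand in mm9), which links the latent complex to the matrix, measured 7.78, 23.9 and 35.8 FPKM for SFZ libraries 1, 2 and 3 of R3-Cntl and 10.1, 40.5 and 13.1 FPKM for SFZ libraries labelled R3-cKO. Its DZ values were 2.73, 13.3 and 8.12 FPKM for R3-Cntl and 15.9, 45.8 and 8.41 FPKM for libraries labelled R3-cKO. The highest value of all was thus a DZ library, and the zones overlapped over most of their range. Its log2 difference was -0.64 (standard error 0.54, limma adjusted p = 0.425). It passed once genotype and number together were blocked (limma adjusted p = 0.0484), where 3949 genes passed. The log2 difference was -1.35 within R3-Cntl libraries alone and 0.07 within R3-cKO libraries alone. Only in 4 of 6 pairs of the same genotype and number was the SFZ library the higher. Ltbp3, another protein that binds the latent complex, was the steadiest latency gene and the second most abundant member in both zones, at 49.8 ± 15.04 FPKM in the SFZ and 37.3 ± 5.65 FPKM in the DZ (SD, n = 6 each). Its log2 difference was -0.37 (standard error 0.17, limma adjusted p = 0.150).

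Ltbp1 and Ltbp2 moved together from library to library. The SD of log2 values within groups was 1.38 for Ltbp2 and 1.06 for Ltbp1, above 99.6% and 98.4% of the 11765 genes tested, whose median was 0.22. Pearson's r between both genes was 0.902 over 12 libraries, 0.988 within the 6 SFZ and 0.953 within the 6 DZ libraries, given as a description. R3-Cntl SFZ libraries 2 and 3, R3-cKO SFZ library 2 and R3-cKO DZ library 2 held the 4 highest values of each. Acta2 and Tagln, genes of the contractile cytoskeleton that respond to TGF-beta in many cells, were also high there. Acta2 measured 357, 333, 414 and 401 FPKM in those 4 libraries, and 47.7 FPKM at its lowest, in R3-Cntl DZ library 1, where Ltbp1 and Ltbp2 were lowest too. Tagln measured 123, 226, 190 and 126 FPKM in the same 4 libraries and 6.77 FPKM in R3-Cntl DZ library 1. Acta2 and Tagln were picked from the 28 response genes tested, and not all of these followed them. Ctgf was highest in R3-Cntl DZ library 1, at 1150 FPKM, against 358, 639, 395 and 1047 FPKM in the same 4 libraries. Fibroblast and tendon markers summed to 8364, 4944, 4214 and 992 FPKM in the same 4 libraries, to 672 FPKM in R3-Cntl DZ library 1 and to 11603 FPKM in R3-cKO SFZ library 3, where Ltbp1 was 13.1 FPKM, and their part in the spread was not tested.

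**Figure D3:**
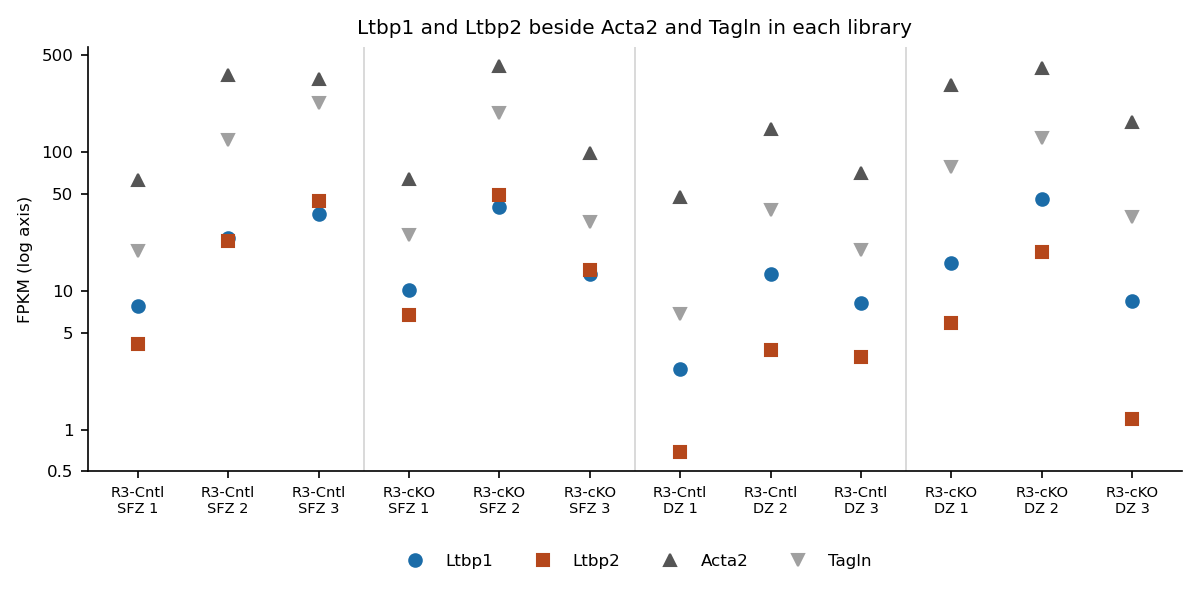
FPKM (vertical log axis) of Ltbp1, Ltbp2, Acta2 and Tagln in each of the 12 libraries, with vertical lines between the 4 groups. All 4 genes are low in R3-Cntl DZ library 1 (2.73, 0.690, 47.7 and 6.77 FPKM) and high in R3-cKO SFZ library 2 (40.5, 48.7, 414 and 190 FPKM).

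Because Ltbp1 and Ltbp2 moved together, their promoters are shown. RefSeq (GRCm38.p6) gave 10 promoters for 8 of the 10 members, each from 250 bases before to 50 bases after a start, and none was matched for Tgfb3 and Tgfbr3. They were searched for the Runx motif TGTGGT or TGCGGT on both strands, which 7362 of 32851 promoters of 300 bases (22.4%) hold. Of the 10 promoters of members 1 held it, the downstream promoter of Ltbp1, with 2 matches that start 71 and 33 bases before the start. The motif that the study recovered from Runx3 binding also allows C as the last base. That wider form was not searched, so other members may hold it. The value of Ltbp1 sums 2 transcripts, so use of its promoters cannot be told apart here. The sequences run 5′ to 3′ on the strand of the gene, with the motif in capitals; Ltbp1 lies on the forward strand at chr17:75005279-75005578 (upstream) and chr17:75178531-75178830 (downstream), and Ltbp2 on the reverse strand at chr12:84876442-84876741.
Ltbp1 upstream promoter: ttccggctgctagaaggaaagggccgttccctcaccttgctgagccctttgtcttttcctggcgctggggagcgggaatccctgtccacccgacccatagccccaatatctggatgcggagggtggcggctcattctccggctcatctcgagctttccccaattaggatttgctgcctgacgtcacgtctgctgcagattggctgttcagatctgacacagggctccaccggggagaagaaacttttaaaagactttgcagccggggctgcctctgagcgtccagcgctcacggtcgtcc
Ltbp1 downstream promoter: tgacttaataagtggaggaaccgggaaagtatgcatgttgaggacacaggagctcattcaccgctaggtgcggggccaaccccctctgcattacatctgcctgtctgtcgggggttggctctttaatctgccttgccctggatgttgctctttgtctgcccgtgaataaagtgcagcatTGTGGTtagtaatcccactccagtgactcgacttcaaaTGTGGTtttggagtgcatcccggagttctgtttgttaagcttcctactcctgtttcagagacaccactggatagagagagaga
Ltbp2 promoter: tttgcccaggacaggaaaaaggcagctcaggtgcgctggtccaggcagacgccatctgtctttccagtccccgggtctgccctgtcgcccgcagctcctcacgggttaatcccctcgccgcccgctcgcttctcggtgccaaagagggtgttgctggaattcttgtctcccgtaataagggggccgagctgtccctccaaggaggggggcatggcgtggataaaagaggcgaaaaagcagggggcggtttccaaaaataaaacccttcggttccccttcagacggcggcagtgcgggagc

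Smad3 (Entrez gene 17127), which carries the receptor signal to the nucleus, measured 16.4 to 21.2 FPKM in the SFZ (median 18.1) and 9.46 to 17.1 FPKM in the DZ (median 14.8). DZ libraries of number 1 were the lowest of their genotype, at 9.46 and 12.0 FPKM, and 4 of 6 DZ values lay under every SFZ value. Its log2 difference of -0.38 (standard error 0.13) missed the threshold at a limma adjusted p of 0.0695, and the exact two-sided permutation test gave p = 0.0152 (n = 6 each). It was -0.21 after quantile normalization and -0.22 with median-of-ratios size factors.

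Ordered by mean level, Tgfbr2 led both zones, followed by Ltbp3. In the SFZ the order went on with Tgfb3, Tgfb2, Tgfb1, Ltbp2, Ltbp1, Smad3, Tgfbr1 and Tgfbr3, and in the DZ with Tgfb2, Tgfb1, Tgfb3, Ltbp1, Smad3, Tgfbr1, Ltbp2 and Tgfbr3. In each zone only 3 of the 9 steps between neighbours were larger than both of their SDs: Tgfbr2 over Ltbp3, Tgfb2 over Tgfb1 and Smad3 over Tgfbr1.

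**Figure D4:**
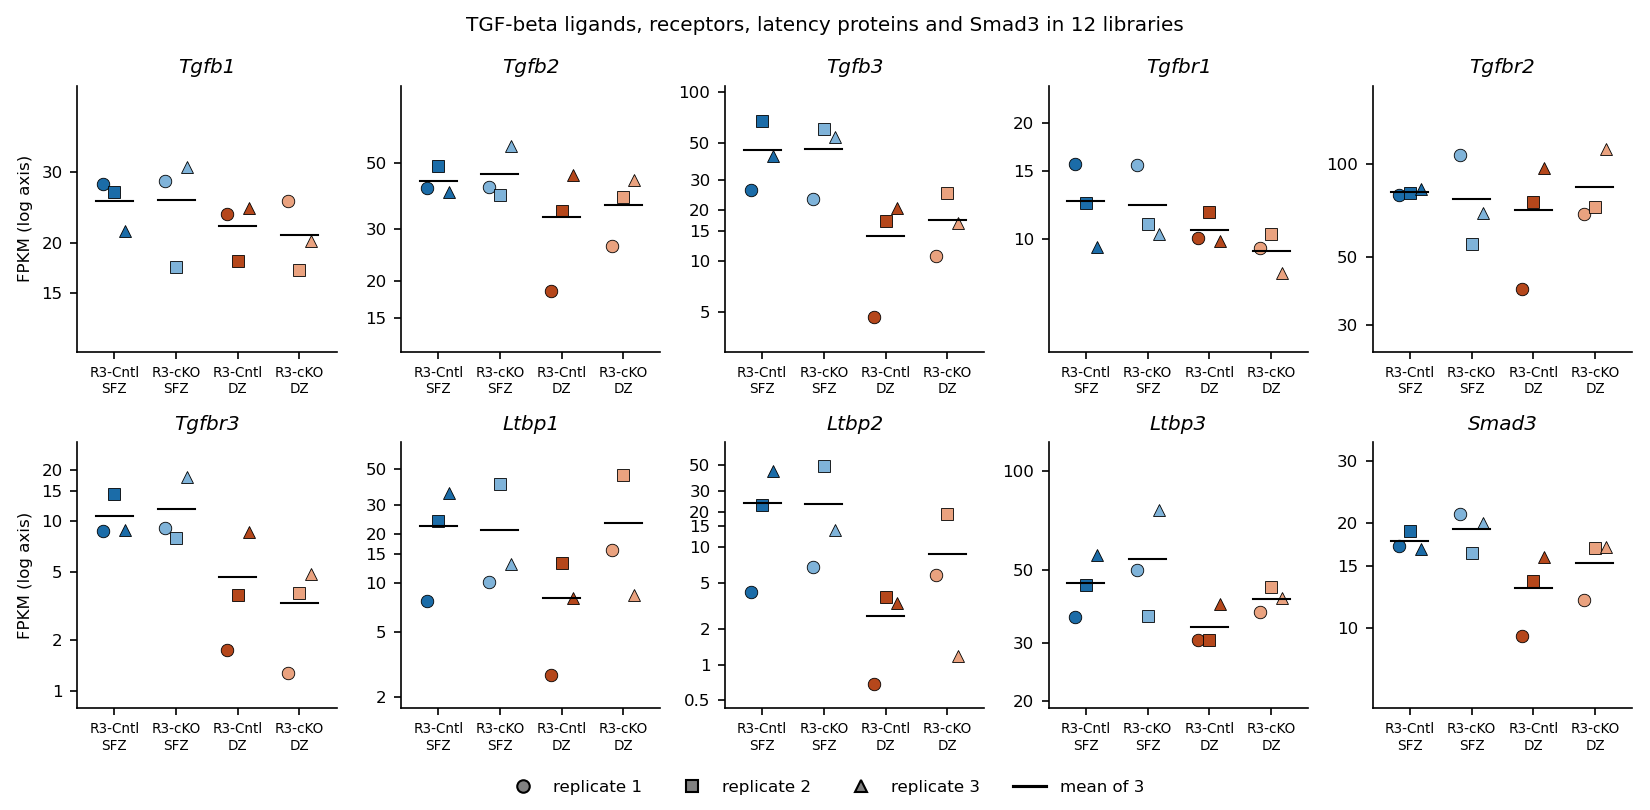
FPKM (log axis) of the 10 members in 12 libraries by group, with a symbol for each replicate number and a line at the mean of 3 libraries. Ltbp2 has the lowest value, 0.690 FPKM in R3-Cntl DZ library 1, Tgfbr2 is level across the groups, and Ltbp1 and Ltbp2 spread most within groups.

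Other genes of the pathway were counted from lists chosen by function, beside the 20.6% of all genes that passed between zones and their median of -0.14. In the list of latency and activation genes, 5 of 14 tested were lower and 1 was higher in the DZ, with a median of -0.42; 4 were lower after quantile normalization and 3 with median-of-ratios size factors. Itgb1, an integrin chain, was called at -0.51 (limma adjusted p = 0.0430) and lost its call under both other scalings. The fibrillins Fbn1 and Fbn2, the scaffolds on which latent complexes are deposited, had log2 differences of -1.18 and -1.85 (limma adjusted p = 0.00963 and 0.0326), and Fbn2 lost its call with median-of-ratios size factors at a difference of -1.70 (limma adjusted p = 0.0517). Ltbp4 measured 9.76 ± 2.09 FPKM in the SFZ and 3.25 ± 1.48 FPKM in the DZ (SD, n = 6 each), a log2 difference of -1.41 (limma adjusted p = 0.00819). Mmp14, a membrane protease that can release ligand, had a log2 difference of -1.57 (limma adjusted p = 0.0140). Emilin1, which restrains ligand maturation, was higher in the DZ at 101 ± 15.3 against 73.6 ± 12.7 FPKM (SD, n = 6 each, limma adjusted p = 0.0189).

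Receptor partners gave 5 lower and 1 higher of 10 tested, with a median of -0.35, and 3 lower under both other scalings. These counts include Acvrl1, which entered the test only through the SFZ, where it is high. Eng, or endoglin, an accessory receptor, measured 24.6 ± 3.95 FPKM in the SFZ and 12.8 ± 3.57 FPKM in the DZ (SD, n = 6 each), a log2 difference of -0.92 (limma adjusted p = 0.00520). Its partner Acvrl1 was under 0.31 FPKM or at it in every DZ library and between 1.02 and 2.99 FPKM in the SFZ. Vasn, which binds the ligands, was at -1.27, Tgfbrap1 at -0.38 and Acvr1b, a type I receptor for activin, at 0.52, all past the threshold. Tgfbrap1, and Acvr1 at -0.32 (limma adjusted p = 0.0354), lost their calls under both other scalings. Among Smads and their regulators 4 of 17 were lower and 2 higher, with a median of -0.22 (-0.055 after quantile normalization and -0.079 with median-of-ratios size factors). Ski, a corepressor of Smad3, had a log2 difference of -0.78, and the ubiquitin ligase gene Smurf1 -0.61, while Nedd4l was at 0.53 and Tgif2 at 0.37. Smad2 (-0.28) and Smurf2 (-0.41) passed with the deposited values but not with quantile normalization or median-of-ratios size factors. The 2 other scalings each left 2 lower and 2 higher genes in this list.

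Matrix proteins that bind the ligands had 2 lower and 0 higher of 4 tested, with a median of -0.57. Aspn, or asporin, measured 68.3 to 392 FPKM in the SFZ and 0.180 to 19.3 FPKM in the DZ (log2 difference -5.32, limma adjusted p = 0.00250). Bgn had -0.61 and lost its call under both other scalings. Dcn, which is also in the fibroblast and tendon list, went the other way at 1.19 without passing (limma adjusted p = 0.0641). Of the genes known to respond to TGF-beta, 7 of 28 were lower and 2 higher, with a median of -0.51, and they moved in both directions. After quantile normalization 6 were lower and 1 higher. Postn, Col1a1, Col1a2 and Col3a1 had log2 differences of -5.21, -3.73, -3.20 and -2.34, and the last 3 of these, with Scx (-0.94), are also in the fibroblast and tendon list. Prg4 and Cdkn2b were at -1.32 and -1.08 (limma adjusted p = 0.0253 and 0.0155), and Prg4 lost its call after quantile normalization. Ctgf, or Ccn2, was higher in the DZ at 961 ± 166 against 428 ± 149 FPKM (SD, n = 6 each), a log2 difference of 1.22 (limma adjusted p = 0.00692). Fn1 was at 0.65, and was not called after quantile normalization. Fibroblast, tendon and macrophage transcripts moved with the zones alongside the members and these lists, and their part in the differences was not tested. Of 11 macrophage markers tested, 7 were lower in the DZ, against 1 after quantile normalization and 3 with median-of-ratios size factors. Only 2 of them would have been tested on DZ libraries alone.

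Genotypes were compared within each zone to ask whether loss of Runx3 alters the pathway. No member passed the test between genotypes in the SFZ. limma gave 0 of 10 members and 0 of 11537 genes an adjusted p under 0.05, and at an unadjusted p under 0.05 it gave 0 members and 34 genes (0.295%). Those 34 were 21 higher and 13 lower, against 42 and 12 after quantile normalization. Without R3-cKO SFZ library 2 they were 411 higher and 793 lower, with 0 members. The log2 differences of the members, labelled R3-cKO minus R3-Cntl, ran from -0.12 for Tgfbr2 to 0.20 for Ltbp3, with a median of 0.02 against -0.0075 over all genes. Smad3 had the narrowest interval, -0.20 to 0.41, and Ltbp2 the widest, -2.36 to 2.41, so changes of several fold in Ltbp2 could not be seen. Tgfb3 measured 45.2 ± 20.9 FPKM for R3-Cntl and 45.9 ± 19.99 FPKM for libraries labelled R3-cKO (SD, n = 3 each), a log2 difference of 0.01 (standard error 0.47). Exact two-sided permutation tests of the members gave p between 0.4 and 1, where 3 libraries against 3 cannot go below 0.1. Among the pathway lists only Prg4 had an unadjusted p under 0.05 (log2 difference -1.45, limma adjusted p = 0.9997).

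In the DZ, Ltbp1 and Ltbp2 lay furthest from 0 of the members without passing the test. limma gave 0 of 10 members and 0 of 11091 genes an adjusted p under 0.05, and 0 members and 404 genes (3.64%) an unadjusted p under 0.05. Those 404 were 277 higher and 127 lower, against 234 and 211 after quantile normalization and 252 and 167 with median-of-ratios size factors. Leaving out a library moved the count of genes between 211 and 773. Members past an unadjusted p of 0.05 in limma were Tgfbr1 after quantile normalization, Ltbp3 without R3-Cntl DZ library 3, Ltbp1 and Ltbp2 without R3-cKO DZ library 3, and Ltbp2 and Ltbp3 without number 3 of both genotypes. Ltbp1 averaged 8.05 ± 5.29 FPKM for R3-Cntl and 23.3 ± 19.8 FPKM for libraries labelled R3-cKO (SD, n = 3 each). Within numbers 1, 2 and 3 the R3-cKO value was 5.81, 3.44 and 1.04 times the R3-Cntl value, so number 3 hardly differed. The log2 difference was 1.31 (standard error 0.70, limma adjusted p = 0.999), and the exact two-sided permutation test gave p = 0.2 (n = 3 each). Ltbp2 had a log2 difference of 1.03 (standard error 0.81), with ratios of 8.46, 5.04 and 0.358 in numbers 1, 2 and 3, the last in the opposite direction. With a library left out, Ltbp1 ran from 0.68 to 1.84 and Ltbp2 from 0.25 to 1.84, both lowest without R3-cKO DZ library 2. Ltbp3 and Smad3 were higher in the R3-cKO library of each number, by 1.04 to 1.45 and by 1.07 to 1.27 times, and Tgfbr1 was lower in each, at 0.946, 0.874 and 0.825 times. The other members had log2 differences between -0.32 for Tgfbr3 and 0.42 for Tgfb3.

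Across genes, DZ libraries that share a number were alike, so the fit with the number as a block is given beside these values. It gave 1830 genes (16.5%) an unadjusted p under 0.05 and 3 members with them, Ltbp1, Ltbp3 and Smad3. Their log2 differences of 1.31, 0.28 and 0.24 then had standard errors of 0.41, 0.11 and 0.08, and their limma adjusted p values of 0.247, 0.291 and 0.276 did not pass. A count of 3 in 10 at this threshold stands beside 16.5% of all genes. Numbers 2 and 3 also differ in sex between the genotypes, and the part of that in these values was not tested.

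**Figure D5:**
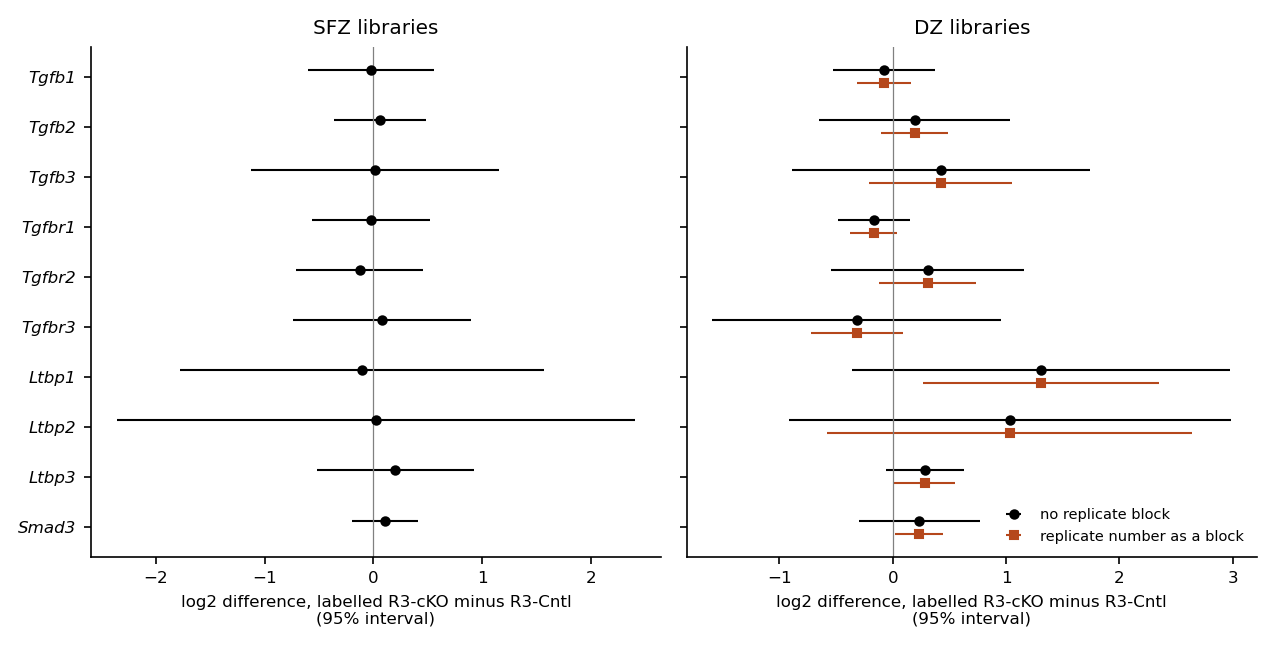
Log2 difference (labelled R3-cKO minus R3-Cntl, horizontal axis) of the 10 members with 95% intervals from limma, for 6 SFZ libraries (left) and 6 DZ libraries (right), the latter also with the replicate number as a block. Every interval without the block includes 0, and with it the DZ intervals of Ltbp1 (1.31), Ltbp3 (0.28) and Smad3 (0.24) lie above 0.

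Between genotypes in the DZ, no receptor partner (9 tested), Smad or regulator (17) or ligand-binding matrix protein (4) had a limma unadjusted p under 0.05. Of the other pathway lists, 5 of 28 response genes and 2 of 13 latency and activation genes had it. The share of all genes in the same fit without the block was 3.64%. Among the genes with it, Acta2, Tagln, Lox, Cdkn2b and Thbs1 had log2 differences of 1.76, 1.93, 2.15, 0.69 and 1.12, and Emilin1 of -0.37. Each had a limma adjusted p of 0.999. Lox, the collagen cross-linking enzyme, measured 14.1, 82.3 and 102 FPKM for DZ libraries 1, 2 and 3 of R3-Cntl and 204, 217 and 254 FPKM for libraries labelled R3-cKO. Thbs1, whose protein can activate latent TGF-beta, measured 669, 1638 and 2180 FPKM and 2518, 3460 and 2792 FPKM. In both genes all DZ libraries labelled R3-cKO stood above all R3-Cntl DZ libraries. Both were named for a low p in this comparison, so their separation adds nothing to it. Separated genes were not counted over all genes. Of the 28 response genes tested there, 20 were higher and 8 lower in sign with a median of 0.40, against 6910 of 11091 higher and a median of 0.05 over all genes. In the same comparison 13 of 14 chondrocyte markers were lower in sign (median -0.62), and 4 of 4 osteoblast markers (median -1.43, 3 with an unadjusted p under 0.05 in limma), and their part in these values was not tested.

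Whether the genotype difference depended on the zone was tested as an interaction over 12 libraries. limma gave 0 of 10 members and 0 of 11765 genes an adjusted p under 0.05, and 0 members and 99 genes (0.841%) an unadjusted p under 0.05. Those 99 were 78 higher and 21 lower, against 49 and 50 after quantile normalization and 63 and 37 with median-of-ratios size factors. Ltbp1 had the largest member value, 1.42 (standard error 1.08), and Ltbp2 followed at 1.01 (standard error 1.41), both with a limma adjusted p of 0.999. With a library left out they ran from 0.78 to 2.01 and from 0.22 to 1.90. The other 8 members lay between -0.39 for Tgfbr3 and 0.43 for Tgfbr2. Prg4 and Emilin1 were the pathway list genes with an unadjusted p under 0.05, at 2.09 and -0.53. Once genotype and number together were blocked, 1 member and 949 genes had an unadjusted p under 0.05 in limma, and 0 passed after adjustment. Between genotypes, numbers were taken as paired only in the DZ.

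Genes most like each member over the 12 libraries were taken by Pearson's r of log2 values, as a description of libraries that fall into zones. They included Cpt1a (r = 0.9747) for Tgfb3, and for Tgfbr3 they were Rab12 (0.993) and Stox2 (0.979). Ltbp1 was most like Ptpn11 (0.986) and Lrrfip1 (0.984), and Ltbp2 most like Sipa1l2 (0.973) and Ppp2r1b (0.972). Tgfb2 was closest to Ssbp4 (0.980) and Gulp1 (0.976), Tgfb1 to Atg4c (0.943) and Tbkbp1 (0.942), and Smad3 to Exoc2 (0.953) and Dvl1 (0.953). Tgfbr1 was closest to Cadm1 (0.943) and Eif4b (0.938), Tgfbr2 to Cyb561 (0.933) and Cobl (0.912), and Ltbp3 to Fuca1 (0.923) and Trim32 (0.915). No other member was among the genes most like a member. Between members, Tgfb2 and Smad3 had the highest r over 12 libraries at 0.920, with 0.964 in the DZ and 0.558 in the SFZ.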

How the data were processed

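The values are those the authors deposited, 1 per gene and library, in FPKM as inferred from their sums, and scaled by TMM. Alignment to mm9 with Bowtie 0.12.2 is named in the submitters' processing notes. No reads were processed again. Genes reaching 1 FPKM in 3 or more of the fitted libraries were kept, a pseudocount of 1 was added, and limma 3.58.1 in R 4.3.3 was fitted with a mean-variance trend. Tables and figures were made with Python 3.11.15. Between zones, up to 6 genes of each pathway list with a limma adjusted p under 0.05, at most 4 in a direction, were named by size of difference, and the other called genes of the lists were added afterwards. Between genotypes, up to 6 with the lowest unadjusted p under 0.05 were named. The members and lists were chosen with earlier results of these data known. Replicate numbers were checked by correlating differences from the group mean over 11359 genes: in the DZ, R3-Cntl and R3-cKO libraries of numbers 1, 2 and 3 had r = 0.65, 0.78 and 0.69, but in the SFZ 0.79, -0.09 and -0.42, so only the DZ was taken as paired, and the animals were littermates. Alternatives were other filters, pseudocounts and scalings, replicate blocks, each genotype alone and each library left out. Leaving out the libraries with the most fibroblast and tendon transcripts was chosen after seeing the data.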

Additional observations from a re-analysis of the deposited data

How the results depend on the processing

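Of the values of members, 106 of 119 between zones, 91 of 100 between genotypes in the SFZ, 96 of 97 in the DZ and 87 of 89 for the interaction kept their sign and their side of the threshold, not counting settings that leave out 1 library. The cause of the others was not tested. Between zones, 1 member and 1008 genes passed when the mean had to reach 10 FPKM, where fewer genes were tested and Tgfbr3 was not. Within R3-Cntl libraries 0 members and 140 genes passed, within R3-cKO libraries 0 and 2, and without both SFZ libraries richest in fibroblast and tendon markers 0 and 644. With genotype and replicate number together as a block, 4 members (Tgfb3, Tgfbr3, Ltbp2 and Ltbp1) and 3949 genes passed between zones. The study names 3 littermates per genotype as the source of both zones, but the labels do not say that equal numbers mark the same animal. Same-number correlations between zones were 0.58, 0.11 and -0.15 in R3-Cntl and 0.42, 0.78 and 0.65 in R3-cKO, and not every library correlates best with its own number. Leaving out any library gave 0 to 3 members and 1245 to 2796 genes. Tgfbr2 between zones was 0.0090 after quantile normalization, 0.094 with median-of-ratios size factors, 0.15 within R3-cKO libraries, and -0.20 to 0.11 with a library left out, and Ltbp1 was 0.066 within R3-cKO libraries. Between genotypes in the SFZ, the log2 ratio of means was 0.0096 for Tgfb1 and -0.030 for Ltbp2, Ltbp2 was -0.017 with a pseudocount of 5, and Tgfbr1 was 0.0016 after quantile normalization. Without both SFZ libraries richest in fibroblast and tendon markers, Tgfb2 was -0.013, Tgfbr1 0.089, Tgfbr3 -0.038, Ltbp1 0.25, Ltbp3 -0.075 and, for the interaction, Tgfb1 0.056. Without both such DZ libraries, Tgfb1 was 0.015 between genotypes in the DZ and 0.037 for the interaction. With a library left out, genotype values in the SFZ ran from -0.17 to 0.23 for Tgfb1, -0.10 to 0.17 for Tgfb2, -0.32 to 0.44 for Tgfb3, -0.19 to 0.14 for Tgfbr1, -0.38 to 0.088 for Tgfbr2, -0.26 to 0.30 for Tgfbr3, -0.70 to 0.33 for Ltbp1, -0.86 to 0.70 for Ltbp2 and -0.076 to 0.45 for Ltbp3. In the DZ they ran from -0.22 to 0.052 for Tgfb1, -0.16 to 0.47 for Tgfb2, -0.18 to 0.78 for Tgfb3, -0.058 to 0.58 for Tgfbr2 and -0.75 to 0.16 for Tgfbr3. Interaction values ran from -0.30 to 0.10 for Tgfb1, -0.23 to 0.41 for Tgfb2, -0.19 to 0.77 for Tgfb3, -0.31 to 0.026 for Tgfbr1, -0.83 to 0.079 for Tgfbr3, -0.17 to 0.36 for Ltbp3 and -0.069 to 0.28 for Smad3. Genes at an unadjusted p under 0.05 in limma between genotypes in the SFZ numbered 143 without a filter, 15 with means from 10 FPKM up, 54 after quantile normalization, 6 without both SFZ libraries and 12 to 1204 with a library left out. In the DZ they numbered 696 without a filter, 184 with means from 10 FPKM up, and 211 to 773 with a library left out. For the interaction they numbered 252, 41, 22 without both SFZ libraries and 198 without both DZ libraries. They numbered 949 with genotype and number together as a block, and 36 to 714 with a library left out. The depth of the libraries is unknown, so what it limits cannot be given.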

Other observations

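Runx2, a relative of Runx3, had a log2 difference of -0.44 between zones (limma adjusted p = 0.0147) and lost its call under quantile normalization and median-of-ratios size factors. Cbfb, the partner of all Runx proteins, measured 34.7 to 57.4 FPKM. Superficial zone markers summed to 152 to 721 FPKM in the SFZ and 45.0 to 113 FPKM in the DZ, and 2 of 5 tested, Prg4 and Abi3bp, were lower in the DZ (only Abi3bp after quantile normalization). Of the mural markers Pdgfrb was lower there, and Notch3, which entered the test only through the SFZ, had a DZ mean of 0.350 FPKM; 2 of 4 were called (1 after quantile normalization), and of the osteoblast markers 1 of 4. None of the endothelial (1 tested), skeletal muscle (4), osteoclast (2) or keratinocyte markers (2) was called between zones, and erythroid markers stayed below 1 FPKM in every library. Acta1 and other skeletal muscle markers summed to 136 FPKM in R3-Cntl SFZ library 2, against 6.77 to 22.5 FPKM elsewhere.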
